A study of Mus musculus with 16 samples.

Results

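The hippocampus of mice that had gone through an escape test was compared with that of mice left in their homecages. The comparison holds 8 of the 16 mice of the series, the 4 control mice (Ctrl) and the 4 homecage mice (HC), and its members were chosen by the sample group in the labels. All were male wild type C57BL/6 mice of 3 months, with 1 library of total RNA per mouse made from both hippocampi of that mouse. Ctrl mice were placed in the shuttle box on the first day without inescapable shocks. On the next day they went through 30 trials of escapable foot shock at 0.4 mA, and tissue was taken 3 h later. HC mice received no trials, no shocks and, by the methods of the study, no testing or handling procedure, and were taken at the same time point. Handling, the box and the escapable shocks therefore came together in the Ctrl group and cannot be told apart here. The other 8 mice, classed as learned helpless (LH) or not (NLH), received 180 inescapable shocks before the same 30 trials. Their levels are given for some genes as a description only. In the study, Ctrl vs. HC served to set aside transcripts that handling, the box or the test session might have changed.

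In neurons, synaptic activity switches on immediate early genes within minutes, and their RNA is largely gone again within hours. Foot shock also releases corticosterone, which acts through the glucocorticoid and mineralocorticoid receptors that hippocampal neurons carry, and induces metallothioneins, Fkbp5, Sgk1 and clock genes such as Per1. Secretory proteins fold in the endoplasmic reticulum with the help of chaperones, among them BiP (Hspa5), and the genes of these chaperones share promoter elements that the factors ATF6 and XBP1 bind. These are general facts of the field and not results of these data.

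The values are FPKM per transcript, which were summed over the annotated transcripts of a gene for statements on genes. Summed FPKM was 122690 to 134285 per mouse in the 8 mice, and 4966 to 6178 transcripts were at 0 in a mouse. The number of fragments, estimated from the steps between low FPKM values, was 28610000 to 38000000. Within HC the SD of log2(FPKM + 0.1) over 4 mice had a median of 0.19 for transcripts with a mean of at least 1 FPKM, and within Ctrl of 0.18. It was wider within NLH, at 0.25, and within LH, at 0.43. LH mouse 4 had 15504 transcripts at 0 and an estimated 20200000 fragments. The NLH and LH levels below are FPKM without further scaling. HC and Ctrl mice both carried the markers of hippocampal cells. Summed markers of CA1 pyramidal cells were 58.5 to 64.9 FPKM in HC and 56.9 to 70.6 FPKM in Ctrl, and those of dentate granule cells were 83.3 to 89.7 and 86.7 to 96.4. Markers of choroid plexus, a tissue next to the hippocampus, varied between mice. The 12 markers summed to 31.2, 5.88, 49.6 and 36.7 FPKM in HC mice 1 to 4 and to 34.4, 71.5, 27.2 and 31.0 FPKM in Ctrl mice 1 to 4, so that HC mouse 2 held the least and Ctrl mouse 2 the most.

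At the gene level, limma with Benjamini-Hochberg adjustment was fitted to log2(FPKM + 0.1) of 15300 genes with a mean of at least 0.1 FPKM. No gene passed an adjusted p of 0.05 (0%). At an unadjusted p under 0.05, 1469 genes (9.6%) were called, of which 955 (6.24%) were higher and 514 (3.36%) lower in Ctrl. This split moved with scaling and with single mice. It was 873 higher and 672 lower with median-ratio size factors, 1199 and 377 without Ctrl 1, and 706 and 560 without HC 3. The 4 Ctrl mice lay entirely above or below the 4 HC mice in 906 genes (5.92%), with 589 (3.85%) above and 317 (2.07%) below. Leaving out each mouse in turn, 0 to 4 genes passed the adjusted threshold, and an equal-variance test per gene called 3. Limma called 9 when only the 10370 genes with a mean of at least 1 FPKM were tested, namely Hspa5, Calr, Limk2, Dio2 and 9330159F19Rik, higher in Ctrl, and Pllp, Cirbp, Brd8 and Phf14, lower in Ctrl. Below, a gene is called higher or lower in Ctrl at the unadjusted threshold, and its adjusted p over all 15300 genes is given where it is described in full. Groups of 4 without overlap give an exact two-sided permutation p of 0.0286, the smallest this design allows. The median log2 difference over all genes tested was 0.024. It was 0.0067 with size factors, 0.011 without Ctrl 2, 0.050 without Ctrl 1, 0.0058 without HC 3, 0.016 without HC 2 and 0.043 without HC 4, and 0.016 when 1 was added in place of 0.1.

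**Figure D1:**
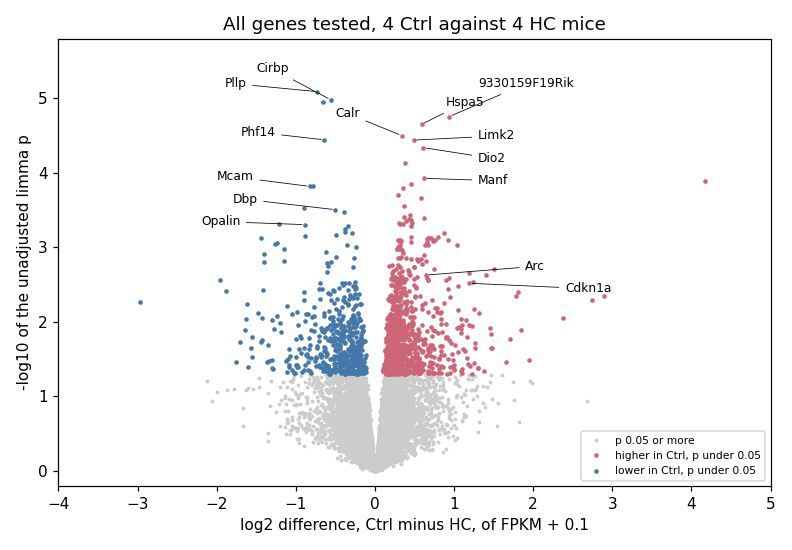
Each of the 15300 genes is a point, with the log2 difference of FPKM + 0.1 (Ctrl minus HC) on the x axis and −log10 of the unadjusted limma p on the y axis. Red points are the 955 genes higher and blue points the 514 genes lower in Ctrl at an unadjusted p under 0.05, and the named genes are described in the text.

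The 7 genes with the smallest p among those higher in Ctrl, at a mean of at least 1 FPKM, included Hspa5, Calr and Manf, whose proteins reside in the endoplasmic reticulum. Hspa5 (chr2:34771970-34777547 in GRCm38, protein coding) encodes BiP, the main chaperone of that compartment. Its summed FPKM was 22.7, 22.4, 21.3 and 23.3 in HC mice 1 to 4 and 29.0, 34.3, 35.2 and 37.3 in Ctrl mice 1 to 4. The lowest Ctrl mouse thus lay above the highest HC mouse, and the mean was 1.51 times that of HC (log2 difference 0.59 ± 0.077 SE, limma adjusted p = 0.0678). Calr (chr8:84841850-84846934) encodes calreticulin, a lectin chaperone that also stores calcium. Its summed FPKM was 52.9, 54.8, 53.4 and 54.1 in HC mice 1 to 4 and 63.4, 70.2, 69.8 and 68.9 in Ctrl mice 1 to 4 (log2 difference 0.34 ± 0.046 SE, limma adjusted p = 0.0692). Spread within each group was small beside the gap between them. Manf (chr9:106838312-106891979) encodes a secreted neurotrophic factor of the endoplasmic reticulum. Its summed FPKM was 11.3, 10.4, 10.9 and 13.5 in HC mice 1 to 4 and 15.4, 18.05, 17.7 and 19.8 in Ctrl mice 1 to 4, again without overlap (log2 difference 0.62 ± 0.10 SE, limma adjusted p = 0.154). In NLH and LH mice the means were 42.2 ± 8.39 and 46.8 ± 17.8 for Hspa5, 92.4 ± 12.1 and 91.9 ± 24.8 for Calr, and 18.8 ± 3.03 and 18.1 ± 8.54 for Manf (FPKM, SD, n = 4 each). All of these means were above the HC means of 22.4 ± 0.8293, 53.8 ± 0.824 and 11.5 ± 1.39.

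A list of 35 genes of protein folding and quality control in the endoplasmic reticulum was written after Hspa5, Calr and Manf had been seen, so its count is a description and no independent evidence of direction. Of its 34 tested members, 10 were higher and 0 lower in Ctrl, beside 6.24% and 3.36% of all genes, and the median log2 difference was 0.14. The 10 are Hspa5, Calr, Manf, Sdf2l1, Xbp1, Creld2, Dnajc3, Pdia4, Syvn1 and Pdia6, and none of them overlapped between the groups. Xbp1, a transcription factor of this pathway, was at 13.1, 11.2, 11.6 and 12.8 in HC mice 1 to 4 and 14.1, 16.3, 18.1 and 18.5 in Ctrl mice 1 to 4 (FPKM, log2 difference 0.45 ± 0.094 SE, limma adjusted p = 0.221). Sdf2l1, a partner of BiP, was at 1.08 to 1.63 FPKM in HC and 2.04 to 2.93 FPKM in Ctrl (log2 difference 0.75 ± 0.16 SE, limma adjusted p = 0.221). Creld2 was at 1.00 to 1.35 and 1.61 to 1.95 FPKM, and the disulfide isomerase genes Pdia4 and Pdia6 at 6.16 to 6.69 and 9.90 to 11.8 FPKM in HC against 6.99 to 9.70 and 12.1 to 17.2 FPKM in Ctrl. Dnajc3, a co-chaperone of BiP, and Syvn1, a ubiquitin ligase that marks misfolded proteins, had log2 differences of 0.27 and 0.30. Other members of the pathway were not called. Hsp90b1, which encodes the chaperone GRP94, had a log2 difference of 0.16 (limma adjusted p = 0.625), and Ddit3, which encodes the stress factor CHOP, one of -0.020 (limma adjusted p = 0.974). The summed FPKM of the list was 332 to 361 in HC and 369 to 438 in Ctrl. Leaving out each mouse in turn, 10 to 13 members were higher and 0 lower.

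The endoplasmic reticulum stress element, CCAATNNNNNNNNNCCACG, was searched on both strands of the RefSeq promoters of GRCm38.p6, from 250 bases before to 50 bases after the start of each gene. It was found in 39 of 32851 promoters (0.119%) and in 9 of the 30 promoters listed for genes of the folding list, which belong to 29 of its 35 genes. Of the 16 genes tested that carry it, 6 were higher and 0 lower in Ctrl, and the median log2 difference was 0.21. Of the 10993 tested genes with a listed promoter without it, 6.36% were higher and 3.37% lower, with a median of 0.02. Within the folding list, 6 of 9 genes with the element and 3 of 19 with a listed promoter without it were higher. These 6 are the same genes as above, and no tested gene with the element outside the list was called. The search was chosen after the genes of the list had been seen. The 6 called genes with the element follow on the strand of the gene, 5′ to 3′, to show the element in the genes called. Capitals mark the element, which lies on the opposite strand in Calr and Creld2, with 10 bases on each side.
Hspa5, chr2:34772015-34772053: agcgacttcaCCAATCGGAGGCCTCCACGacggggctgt
Calr, chr8:84847065-84847103: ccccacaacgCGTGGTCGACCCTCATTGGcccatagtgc
Creld2, chr15:88819510-88819548: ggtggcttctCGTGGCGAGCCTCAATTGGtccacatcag
Dnajc3, chr14:118937817-118937855: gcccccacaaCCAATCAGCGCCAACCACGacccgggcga
Pdia6, chr12:17266481-17266519: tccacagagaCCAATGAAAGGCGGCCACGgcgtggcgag
Syvn1, chr19:6046522-6046560: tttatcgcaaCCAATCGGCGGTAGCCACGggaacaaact
The letters between the ends of the element differ from gene to gene, and its first base lay between 162 and 44 bases before the RefSeq start. That start can differ from the start of the span given for a gene, which is that of the GENCODE annotation. In Hspa5 the GENCODE start lies upstream of the RefSeq start, and the element lies inside the GENCODE span. A match is a description of sequence, and binding was not measured. Canx, Derl3 and Hsp90b1 hold the element too, with log2 differences of 0.12, 0.38 and 0.16, and none of these was called. The whole promoter of Hspa5 (chr2:34771840-34772139, plus strand) follows, with the same element in capitals.
Hspa5 promoter: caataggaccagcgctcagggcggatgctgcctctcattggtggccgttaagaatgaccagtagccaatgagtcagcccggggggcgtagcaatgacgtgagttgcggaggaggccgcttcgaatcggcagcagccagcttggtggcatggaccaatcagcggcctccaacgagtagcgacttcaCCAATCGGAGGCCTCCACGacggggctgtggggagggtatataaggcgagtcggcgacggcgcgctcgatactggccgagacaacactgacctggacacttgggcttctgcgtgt

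**Figure D2:**
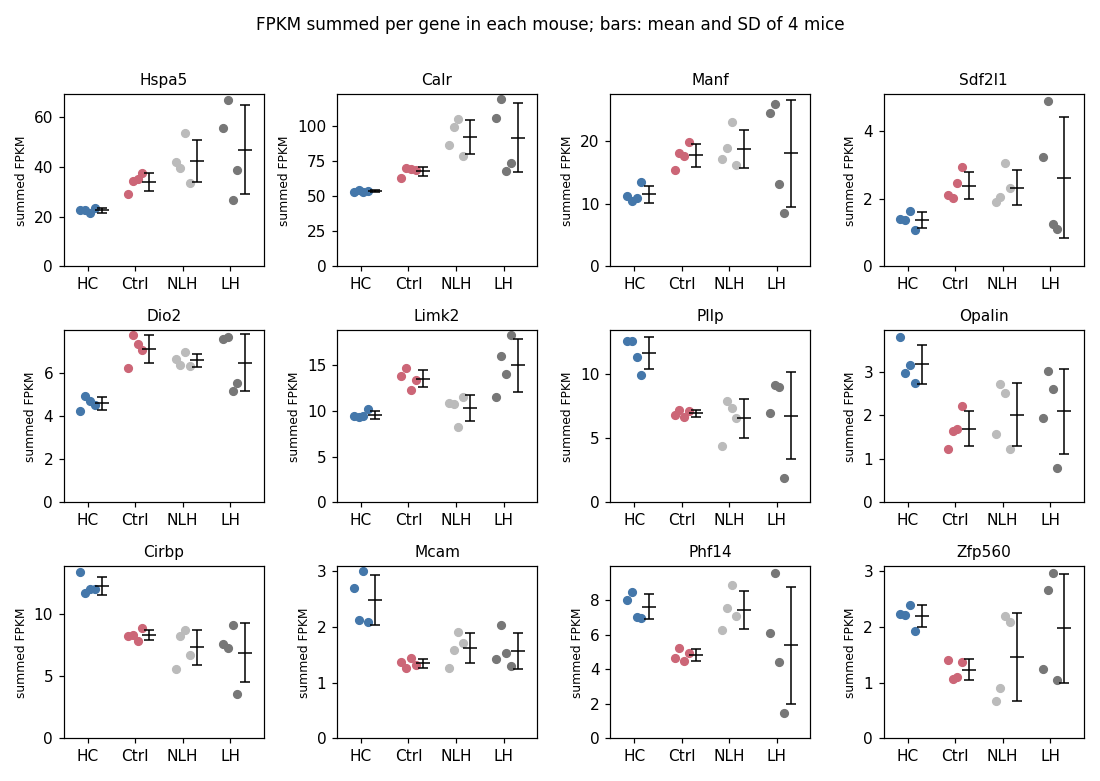
Summed FPKM (y axis) of 12 genes in each mouse of the 4 groups (x axis), with the mean and SD of 4 mice beside the points. The 4 Ctrl points lie above the 4 HC points for the endoplasmic reticulum genes Hspa5, Calr, Manf and Sdf2l1 and for Dio2 and Limk2, and below them for Pllp, Opalin, Cirbp, Mcam, Phf14 and Zfp560.

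Cytosolic chaperones of the heat shock response were partly higher. Of 26 tested genes of the heat shock list, 7 were higher and 1 lower in Ctrl, beside 6.24% and 3.36% of all genes, with a median log2 difference of 0.10. Of these, Hspa5 and Dnajc3 belong to the folding list as well. Hspa8, the constitutive cytosolic HSP70, was at 318, 300.1, 293 and 349.8 in HC mice 1 to 4 and 364, 412, 401 and 395 in Ctrl mice 1 to 4 (log2 difference 0.32 ± 0.062 SE, limma adjusted p = 0.220). The highest HC mouse, HC 4, lay below the lowest Ctrl mouse, Ctrl 1. Dnajb5, an HSP40 co-chaperone, was at 6.68 to 9.05 FPKM in HC and 10.0 to 15.4 FPKM in Ctrl (log2 difference 0.67 ± 0.14 SE, limma adjusted p = 0.221). Hsph1, Hsf1 and Hspb1 had log2 differences of 0.27, 0.46 and 0.76. Hspd1, a mitochondrial chaperone, had a log2 difference of -0.48, at 10.2 to 17.6 FPKM in HC and 8.06 to 10.8 FPKM in Ctrl, and its groups overlapped. Fkbp4 and Stip1, which with HSP90 hold the glucocorticoid receptor, were higher as well, at 10.3 to 11.7 and 7.49 to 10.3 FPKM in HC and 12.3 to 13.6 and 10.4 to 11.7 FPKM in Ctrl. Leaving out each mouse, 7 to 9 members were higher, and the 1 lower became 0 without Ctrl 1, HC 1 or HC 2. The median was 0.16 without Ctrl 1 and 0.064 without HC 3. The inducible HSP70 genes Hspa1a and Hspa1b were not tested.

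Other genes with the smallest p among those higher in Ctrl were 9330159F19Rik, Limk2, Dio2 and Sipa1l3. 9330159F19Rik (chr10:29211606-29230779, protein coding) was at 2.19, 1.73, 2.00 and 1.85 in HC mice 1 to 4 and 3.18, 4.07, 4.27 and 3.78 in Ctrl mice 1 to 4, about 1.97 times as high on the mean (log2 difference 0.94 ± 0.12 SE, limma adjusted p = 0.0669). Limk2, a kinase that inactivates the actin-severing protein cofilin, was at 9.41, 9.29, 9.42 and 10.2 in HC mice 1 to 4 and 13.8, 14.6, 12.3 and 13.4 in Ctrl mice 1 to 4 (log2 difference 0.49 ± 0.068 SE, limma adjusted p = 0.0692). Its NLH mean, 10.4 ± 1.44 FPKM (SD, n = 4), was nearer to the HC mean of 9.59 ± 0.433 than to the Ctrl mean of 13.5 ± 0.974. Sipa1l3, of a family of GTPase-activating proteins, was at 20.02 to 21.9 FPKM in HC and 25.5 to 28.4 FPKM in Ctrl (log2 difference 0.38 ± 0.057 SE, limma adjusted p = 0.111). Dio2 (chr12:90724552-90738438) encodes the deiodinase with which astrocytes make active thyroid hormone. Its summed FPKM was 4.24, 4.94, 4.68 and 4.49 in HC mice 1 to 4 and 6.21, 7.75, 7.33 and 7.04 in Ctrl mice 1 to 4, again without overlap (log2 difference 0.61 ± 0.087 SE, limma adjusted p = 0.0777). The RefSeq promoter of Dio2, whose start lies upstream of the GENCODE span given here, holds the cAMP response element TGACGTCA, which reads the same on both strands and stood in 588 of the 32851 promoters (1.79%). It is shown in capitals on the strand of the gene because activity-regulated genes often carry it.
Dio2, chr12:90739116-90739143: tctttctcaaTGACGTCAagatctttag
Over all 381 tested genes with this element, 5.77% were higher and 3.41% lower in Ctrl, close to the 6.24% and 3.36% of all genes.

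Among genes lower in Ctrl, the smallest p belonged to Pllp, Cirbp and Brd8. Pllp (chr8:94674894-94696278) encodes plasmolipin, a membrane protein of myelin. Its summed FPKM was 12.6, 12.6, 11.4 and 9.97 in HC mice 1 to 4 and 6.84, 7.199, 6.67 and 7.16 in Ctrl mice 1 to 4 (log2 difference -0.73 ± 0.084 SE, limma adjusted p = 0.0575). Every Ctrl mouse was below every HC mouse, and the NLH and LH means were 6.57 ± 1.53 and 6.77 ± 3.39 (SD, n = 4 each). Of 12 tested markers of oligodendrocytes, which make myelin, 0 were higher and 3 lower, beside 6.24% and 3.36% of all genes, with a median log2 difference of -0.085. Opalin, a myelin glycoprotein, was at 3.81, 2.97, 3.16 and 2.74 in HC mice 1 to 4 and 1.24, 1.64, 1.68 and 2.22 in Ctrl mice 1 to 4 (log2 difference -0.88 ± 0.17 SE, limma adjusted p = 0.220). Cnp and Mag had log2 differences of -0.24 and -0.28, and their groups overlapped. The summed FPKM of the markers was 536, 496, 553 and 506 in HC and 446, 546, 474 and 547 in Ctrl, so these sums overlapped too. In bulk tissue, fewer cells of a type and less RNA per cell cannot be told apart. Leaving out each mouse, 2 to 5 markers were lower (5 without Ctrl 4, 2 without Ctrl 1, Ctrl 3, HC 2 or HC 3). Their median was -0.020 without Ctrl 1, -0.15 without Ctrl 4 and -0.14 without HC 4. The call of Mag was lost without Ctrl 1, Ctrl 3, HC 1, HC 2 or HC 3, with log2 differences between -0.28 and -0.20.

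Cirbp (chr10:80165985-80172786), a cold-inducible RNA-binding protein, was at 13.3, 11.7, 12.0 and 12.0 in HC mice 1 to 4 and 8.24, 8.24, 7.78 and 8.82 in Ctrl mice 1 to 4 (log2 difference -0.56 ± 0.066 SE, limma adjusted p = 0.0575). The groups did not overlap, and the NLH and LH means were 7.30 ± 1.43 and 6.86 ± 2.36 (SD, n = 4 each), below the HC mean of 12.2 ± 0.733.  Brd8, a bromodomain protein of a histone acetyltransferase complex, was at 10.3 to 12.1 FPKM in HC and 6.65 to 7.88 FPKM in Ctrl (log2 difference -0.66 ± 0.079 SE, limma adjusted p = 0.0575). Phf14, a chromatin-binding protein, was at 8.03, 8.44, 7.02 and 6.98 in HC mice 1 to 4 and 4.67, 5.26, 4.46 and 4.96 in Ctrl mice 1 to 4 (log2 difference -0.64 ± 0.088 SE, limma adjusted p = 0.0692). Its NLH mean was 7.44 ± 1.09 FPKM, near the HC mean of 7.62 ± 0.732 (SD, n = 4 each). Mcam, an adhesion molecule of vessel walls, was at 2.09 to 3.00 and 1.26 to 1.44 FPKM (log2 difference -0.82 ± 0.14 SE, limma adjusted p = 0.154), and the zinc finger gene Zfp560 at 1.93 to 2.39 and 1.06 to 1.40 FPKM (log2 difference -0.79 ± 0.13 SE, limma adjusted p = 0.154). Slco1a4, a transporter of brain endothelium, was lower too, at 8.66 to 9.63 FPKM in HC and 6.39 to 7.68 FPKM in Ctrl. The other 11 tested markers of endothelium and pericytes were not called. Many of the genes described overlap another annotated gene. Examples on the opposite strand are Manf with Dcaf1, Dbp with Sphk2, Nr1d1 with Thra, Sult1a1 with Sgf29, Glul with Teddm2, Grin1 with Grin1os, and Pllp, Mcam and Dio2 with noncoding genes. Manf also overlaps Rbm15b and 9330159F19Rik overlaps Gm49353 on the same strand, and Cirbp shares its assembled locus with 1600002K03Rik. Spans of genes were compared and not their exons. Since the strand of the libraries is not stated in the sources used here, reads from bases that both genes of a pair share cannot be told apart by strand.

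Activity-regulated genes were examined because hippocampal neurons respond to shock and new contexts. The session ended 3 h before tissue was taken. Of 21 tested immediate early transcription factors, 5 were higher and 0 lower in Ctrl, beside 6.24% and 3.36% of all genes, and the median log2 difference was 0.20. Fosb, a partner of Jun proteins with long-lived forms, was at 0.335, 0.272, 0.278 and 0.330 in HC mice 1 to 4 and 0.658, 0.477, 0.713 and 0.853 in Ctrl mice 1 to 4 (log2 difference 0.92 ± 0.19 SE, limma adjusted p = 0.221). Egr3, a zinc finger factor, was at 0.346, 0.265, 0.362 and 0.308 in HC mice 1 to 4 and 0.540, 0.823, 1.12 and 0.645 in Ctrl mice 1 to 4 (log2 difference 1.03 ± 0.22 SE, limma adjusted p = 0.221). Both were low in every mouse, and both were higher in each Ctrl mouse than in any HC mouse. Fos was at 0.571, 0.976, 0.480 and 0.913 in HC mice 1 to 4 and 1.09, 1.24, 0.915 and 1.73 in Ctrl mice 1 to 4 (log2 difference 0.70 ± 0.25 SE, limma adjusted p = 0.446). Ctrl mouse 3 lay below HC mouse 2, and the call was lost without Ctrl 4, HC 1 or HC 3 (log2 differences of 0.54 to 0.61). Klf4 and Klf10 were the other members called, with log2 differences of 0.56 and 0.30, and Klf4 lost its call without Ctrl 2, Ctrl 4, HC 1 or HC 4. Klf10 was not among the members called without Ctrl 4 or without HC 3. Egr1 (5.36 to 6.25 FPKM in HC, 5.99 to 8.15 FPKM in Ctrl), Nr4a1 (1.11 to 2.48 and 1.73 to 3.82) and Npas4 (0.463 to 0.837 and 0.459 to 0.565) were not called, and their groups overlapped. Without Ctrl 4 the number of members higher was 2, without HC 1 or HC 3 it was 3 (with 1 member lower without HC 1), and without each of the other mice it was 4 to 6. Jun, Junb, Jund, Fosl1, Ier2 and Ier5 were not tested.

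Among 39 tested effector genes of synaptic activity, 6 were higher and 1 lower, beside 6.24% and 3.36% of all genes, with a median log2 difference of 0.079. Arc, a cytoskeletal protein of active synapses, was at 5.40, 7.96, 6.10 and 7.26 in HC mice 1 to 4 and 9.37, 9.28, 9.63 and 13.9 in Ctrl mice 1 to 4 (log2 difference 0.64 ± 0.16 SE, limma adjusted p = 0.306). The groups did not overlap, and Ctrl mouse 4 was far above the other 3 Ctrl mice. Dusp6, a phosphatase that acts on ERK, was at 7.52, 7.21, 7.12 and 7.90 in HC mice 1 to 4 and 9.41, 9.63, 10.7 and 11.1 in Ctrl mice 1 to 4 (log2 difference 0.45 ± 0.074 SE, limma adjusted p = 0.154). Dusp4, a related phosphatase, and Spred1, an inhibitor of Ras signaling, were at 2.502 to 2.72 and 15.6 to 16.5 FPKM in HC and 3.03 to 3.57 and 17.7 to 18.4 FPKM in Ctrl. Homer1, a postsynaptic scaffold, was at 18.1 to 20.4 and 20.1 to 22.3 FPKM (log2 difference 0.18 ± 0.058 SE, limma adjusted p = 0.412), and Dusp14 had a log2 difference of 0.26. Of these 6 members, Homer1 was the one whose groups overlapped. Ifrd1 was the member lower, with a log2 difference of -0.45. The number higher was 9 in place of 6 without Ctrl 1, and the median was 0.046 without Ctrl 2, 0.042 without Ctrl 4 and 0.041 without HC 3. Bdnf, the neurotrophin, did not differ beyond its spread, at 3.67, 4.17, 3.73 and 3.31 in HC mice 1 to 4 and 4.02, 3.36, 3.94 and 3.96 in Ctrl mice 1 to 4 (log2 difference 0.039 ± 0.10 SE, limma adjusted p = 0.931).

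**Figure D3:**
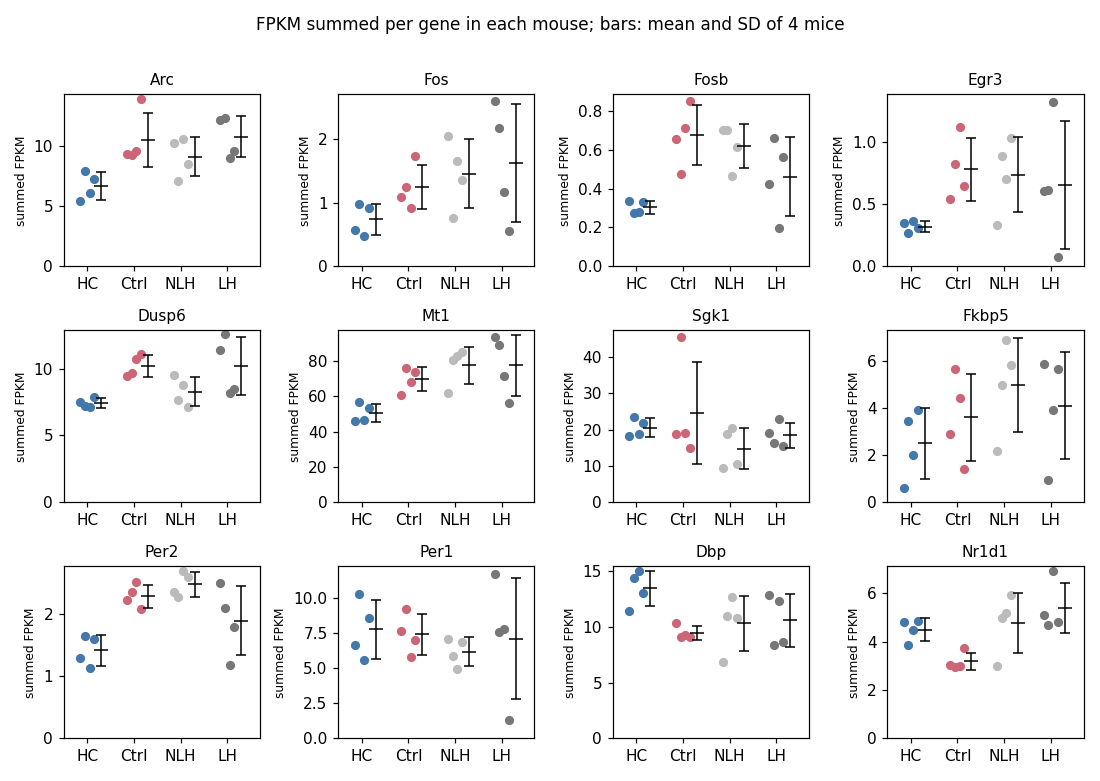
Summed FPKM (y axis) of activity-regulated, corticosteroid-responsive and clock genes in each mouse of the 4 groups (x axis), with the mean and SD of 4 mice beside the points. Arc, Fosb, Egr3, Dusp6, Mt1 and Per2 lie higher and Dbp and Nr1d1 lower in all 4 Ctrl mice than in any HC mouse, while Sgk1 is raised in Ctrl mouse 2 alone, at 45.5 FPKM.

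Genes that glucocorticoids induce were higher in part. Of 22 tested members, 9 were higher and 0 lower in Ctrl, beside 6.24% and 3.36% of all genes, and the median log2 difference was 0.29. Mt1, a metallothionein, was at 46.0, 56.6, 46.8 and 53.4 in HC mice 1 to 4 and 60.7, 76.1, 68.3 and 73.8 in Ctrl mice 1 to 4 (log2 difference 0.46 ± 0.089 SE, limma adjusted p = 0.220). Sult1a1, a sulfotransferase, was at 1.29, 1.64, 1.87 and 1.69 in HC mice 1 to 4 and 2.80, 4.24, 2.80 and 2.52 in Ctrl mice 1 to 4 (log2 difference 0.87 ± 0.17 SE, limma adjusted p = 0.221). Mertk, a phagocytic receptor of astrocytes and microglia, and Cdkn1a, the cell cycle inhibitor p21, were at 3.57 to 4.93 and 0.252 to 0.770 FPKM in HC and 5.146 to 6.02 and 0.980 to 2.00 FPKM in Ctrl, without overlap. Zbtb16, Klf9, Mt2, Gpd1 and Pnpla2 were the other members called, with log2 differences of 0.47, 0.16, 0.29, 0.22 and 0.51. Fkbp5, Sgk1 and Per1 were not among the genes called. Fkbp5, a co-chaperone of the receptor, was at 0.619, 3.44, 2.03 and 3.93 in HC mice 1 to 4 and 2.91, 5.67, 4.43 and 1.43 in Ctrl mice 1 to 4 (log2 difference 0.62 ± 0.56 SE, limma adjusted p = 0.774), so its 4 values spread over a wide range in both groups. Sgk1, a kinase, was at 18.3, 23.5, 18.7 and 21.8 in HC mice 1 to 4 and 18.9, 45.5, 18.96 and 14.97 in Ctrl mice 1 to 4 (log2 difference 0.12 ± 0.29 SE, limma adjusted p = 0.928). Only Ctrl mouse 2 was high, and the other 3 Ctrl mice lay within or below the HC range. That mouse also held the most choroid plexus markers, 71.5 FPKM against 27.2 to 34.4 FPKM in the other Ctrl mice, and the part of this in the level of Sgk1 was not tested. Without Ctrl 2, 6 members of the list were higher and 1 lower, with a median of 0.20. Without HC 1, 6 were higher, and without HC 3, 7. Astrocyte markers, 3 of 12 of which were called higher, summed to 787 to 837 FPKM in HC and 829 to 992 FPKM in Ctrl, and their part in this list was not tested. Tsc22d3 and Cebpd were not tested.

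Of the corticosteroid receptors, Nr3c2 was called and Nr3c1 was not. Nr3c1, the glucocorticoid receptor, was at 8.29 to 9.57 FPKM in HC and 8.25 to 10.0 FPKM in Ctrl (log2 difference 0.033 ± 0.080 SE, limma adjusted p = 0.928). Nr3c2, the mineralocorticoid receptor, was lower in Ctrl without overlap, at 8.90, 10.1, 10.2 and 9.91 in HC mice 1 to 4 and 8.86, 7.71, 7.56 and 8.22 in Ctrl mice 1 to 4 (log2 difference -0.27 ± 0.074 SE, limma adjusted p = 0.346). Of 15 tested receptors and partners, 3 were higher, Fkbp4 and Stip1 among them, and 1 was lower, beside 6.24% and 3.36% of all genes, and the median log2 difference was 0.0083.

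Called clock genes lay in both directions. Of 22 tested members, 4 were higher and 2 lower in Ctrl, beside 6.24% and 3.36% of all genes, with a median log2 difference of 0.016 (-0.0021 with size factors and up to 0.064 without Ctrl 3). Per2, a repressor of the clock, was at 1.29, 1.64, 1.12 and 1.59 in HC mice 1 to 4 and 2.22, 2.34, 2.503 and 2.07 in Ctrl mice 1 to 4 (log2 difference 0.67 ± 0.14 SE, limma adjusted p = 0.221). All Ctrl mice were above all HC mice. Its paralog Per1 was not called, at 6.63, 10.2, 5.56 and 8.52 in HC mice 1 to 4 and 7.59, 9.20, 5.76 and 7.00 in Ctrl mice 1 to 4 (log2 difference -0.048 ± 0.20 SE, limma adjusted p = 0.965), and the groups overlapped. Dbp, an output factor that binds D-box elements, was lower at 11.4, 14.4, 14.995 and 13.1 in HC mice 1 to 4 and 10.3, 9.11, 9.30 and 9.10 in Ctrl mice 1 to 4 (log2 difference -0.50 ± 0.091 SE, limma adjusted p = 0.220), and Nr1d1, the repressor REV-ERB alpha, at 4.82, 3.86, 4.46 and 4.86 in HC mice 1 to 4 and 3.05, 2.95, 3.01 and 3.72 in Ctrl mice 1 to 4 (log2 difference -0.49 ± 0.11 SE, limma adjusted p = 0.255). Neither overlapped between the groups. Hlf and Tef, which bind the same elements as Dbp, were higher, with log2 differences of 0.21 and 0.18, as was Clock, with 0.22. In NLH and LH mice, the means of Per2 were 2.47 ± 0.197 and 1.89 ± 0.554 FPKM, those of Dbp 10.3 ± 2.47 and 10.6 ± 2.38, and those of Nr1d1 4.77 ± 1.26 and 5.38 ± 1.04 (SD, n = 4 each). Nr1d1 was thus not below its HC mean of 4.499 ± 0.462 in these mice. The E-box CACGTG, which the CLOCK complex binds, stood in 7.15% of all promoters, and 6.42% of the 1231 tested genes with it were higher and 3.17% lower. Leaving out HC 2, 2 members were higher in place of 4.

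**Figure D4:**
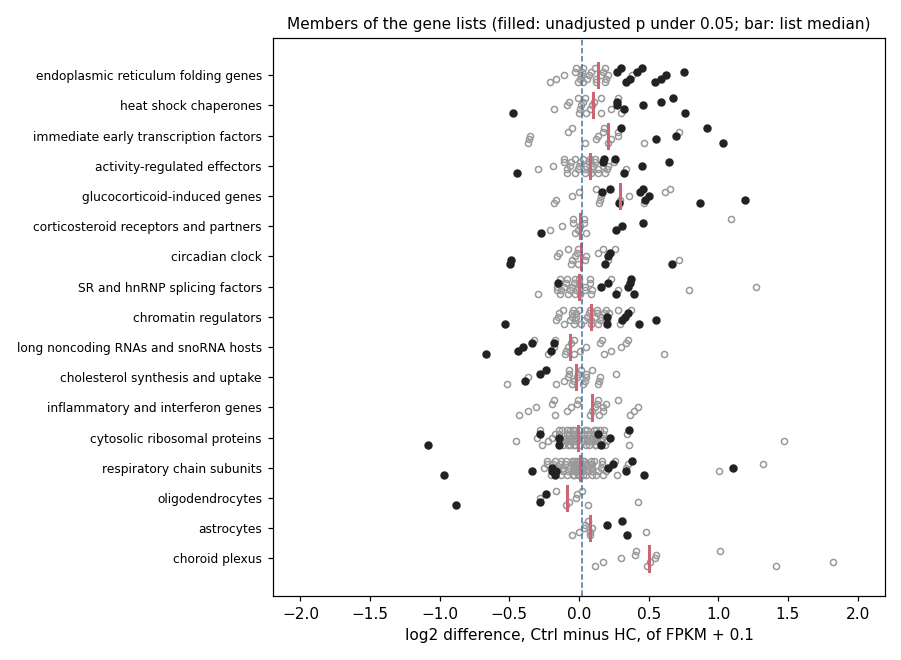
Log2 difference of FPKM + 0.1 (Ctrl minus HC, x axis) of each tested member of 17 gene lists (y axis), with filled points at an unadjusted p under 0.05, a red bar at the median of each list and a dashed line at the median of all genes. Filled points lie on the right alone for the endoplasmic reticulum, immediate early and glucocorticoid-induced lists, on both sides for clock, ribosomal and respiratory genes, and on the left alone for noncoding RNAs, cholesterol genes and oligodendrocyte markers.

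Genes of RNA processing included several called members. Of 38 tested SR and hnRNP splicing factors, 7 were higher and 1 lower, beside 6.24% and 3.36% of all genes, with a median log2 difference of -0.0014. Tra2a and Tra2b, splicing activators, were at 7.19 to 7.96 and 12.2 to 15.7 FPKM in HC and 9.32 to 10.6 and 16.1 to 16.9 FPKM in Ctrl. Srsf10 was at 7.36, 6.77, 7.36 and 6.58 in HC mice 1 to 4 and 8.49, 9.84, 8.85 and 9.81 in Ctrl mice 1 to 4 (log2 difference 0.39 ± 0.075 SE, limma adjusted p = 0.220), and Clk1, a kinase of SR proteins, at 19.02 to 20.1 and 21.7 to 23.3 FPKM. The number lower was 4 with median-ratio size factors, 3 without Ctrl 4, 2 without Ctrl 2, HC 2 or HC 3 and 0 without Ctrl 3, and 5 to 8 members were higher leaving out each mouse. Of 42 tested chromatin regulators, 7 were higher and 1 lower, beside the same background of 6.24% and 3.36%, with a median of 0.088, and 5 to 9 higher and 0 or 1 lower leaving out each mouse. Kmt2a, a histone H3 lysine methyltransferase, was at 4.81 to 5.61 and 6.22 to 6.87 FPKM (log2 difference 0.33 ± 0.073 SE, limma adjusted p = 0.255), Ezh1 at 8.91 to 10.2 and 10.8 to 11.9 FPKM, and Kat2b at 3.01 to 3.54 and 3.63 to 5.72 FPKM. Mbd2, a reader of DNA methylation, was at 4.51 to 5.50 and 5.19 to 6.97 FPKM, and its groups overlapped.

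Noncoding RNAs and cholesterol genes had called members on the lower side with all 8 mice, and on both sides without some mice. Of 26 tested long noncoding RNAs and hosts of small nucleolar RNAs, 0 were higher and 6 lower, beside 6.24% and 3.36% of all genes, with a median log2 difference of -0.068 (-0.10 without HC 1 and -0.044 without HC 2). Neat1, the RNA of paraspeckles, was at 8.60, 9.36, 9.64 and 8.09 in HC mice 1 to 4 and 5.52, 6.35, 7.62 and 7.56 in Ctrl mice 1 to 4 (log2 difference -0.40 ± 0.11 SE, limma adjusted p = 0.350). Epb41l4aos was at 4.29 to 7.00 and 2.18 to 4.02 FPKM, also without overlap. Sox2ot, Snhg3, Gas5 and Meg3 had log2 differences of -0.34, -0.44, -0.20 and -0.18, and their groups overlapped. Snhg3 lost its call without Ctrl 1, Ctrl 4, HC 1 or HC 2. Without Ctrl 1 or HC 2, 3 members were lower in place of 6. A member was higher without Ctrl 1, Ctrl 3 or HC 2 (1 each) and without HC 3 (2 members). Of 24 tested genes of cholesterol synthesis and uptake, 0 were higher and 3 lower (12.5% called, against 9.6% of all genes), with a median of -0.024 that was above 0 without Ctrl 1 or HC 4. The number lower was 1 without Ctrl 1, Ctrl 4 or HC 1 and 5 with size factors, and 1 member was higher without Ctrl 1 or HC 4. Insig1, which holds back the sterol-regulated factor SREBP and is itself its target, was at 9.85, 10.1, 9.25 and 10.0 in HC mice 1 to 4 and 7.28, 8.38, 7.18 and 7.07 in Ctrl mice 1 to 4 (log2 difference -0.39 ± 0.072 SE, limma adjusted p = 0.220). The synthesis enzyme Sqle had a log2 difference of -0.24, with overlapping groups, and lost its call without Ctrl 1, Ctrl 3, Ctrl 4, HC 1 or HC 4 (log2 differences of -0.25 to -0.18).

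With all 8 mice and no size factors, the synaptic genes called were all higher in Ctrl. They were 9.52% of glutamate receptor, 15.4% of GABA receptor, 10.7% of presynaptic and 10% of postsynaptic genes. Of all genes, 9.6% were called, 6.24% higher and 3.36% lower. Of 21 tested glutamate receptor genes, 2 were higher and 0 lower, and the median log2 difference was 0.023 (0.048 without Ctrl 1 and -0.0037 without HC 3). Without Ctrl 2, and with size factors, 1 member was lower. Grm2, a presynaptic metabotropic receptor, was at 3.49, 3.46, 2.94 and 3.77 in HC mice 1 to 4 and 5.56, 5.58, 5.03 and 3.78 in Ctrl mice 1 to 4 (log2 difference 0.52 ± 0.14 SE, limma adjusted p = 0.318), and Grin1, the obligate subunit of NMDA receptors, at 38.6 to 42.3 and 43.7 to 44.1 FPKM, a difference of 0.10 on the log2 scale. The Grin1 call was lost without each of 6 mice, and held without HC 1 and without HC 4. Of 13 GABA receptor genes, 2 were higher, Gabra2 and Gabbr2, with differences of 0.34 and 0.16, and Gabbr2 lost its call without Ctrl 2, Ctrl 3, Ctrl 4, HC 2 or HC 3. Of 28 presynaptic genes, 3 were higher, Cplx2, Syt7 and Stx1a (0.19, 0.19 and 0.19), and of 30 postsynaptic scaffolds and kinases 3, among them Dlgap1 and Camk2a (0.20 and 0.17), and none was lower. Stx1a lost its call without Ctrl 2, Ctrl 3, Ctrl 4, HC 1, HC 2 or HC 3, and Syt7 without Ctrl 3 or Ctrl 4. Leaving out each mouse, 1 to 5 presynaptic genes were higher (1 without Ctrl 3 or Ctrl 4, 5 without HC 4) and 0 or 1 lower, and 3 to 7 postsynaptic genes were higher (7 without HC 4, 5 without Ctrl 1, Ctrl 2 or Ctrl 4). None of 23 tested inflammatory and interferon genes was called in either direction by limma at the unadjusted threshold, and of 19 neuropeptide genes Vip alone was higher, at 0.911 to 1.76 FPKM in HC and 1.60 to 2.96 FPKM in Ctrl with overlap. Without Ctrl 1 or HC 4, 2 inflammatory genes were higher, and without HC 3, 1 was lower. Vip lost its call without Ctrl 3, Ctrl 4, HC 1 or HC 2. The number of neuropeptide genes higher was 3 without Ctrl 1, 2 without Ctrl 4 or HC 4 and 0 without Ctrl 3. Of 77 cytosolic ribosomal protein genes, 4 were higher and 4 lower, beside 6.24% and 3.36% of all genes. Fau was at 61.3, 53.5, 53.0 and 55.9 in HC mice 1 to 4 and 72.2, 76.3, 69.9 and 68.0 in Ctrl mice 1 to 4 (log2 difference 0.36 ± 0.059 SE, limma adjusted p = 0.154), while Rpl9 and Rpl23 were lower by log2 differences of -0.15 and -0.28. Of 79 respiratory chain subunits, beside the same shares of all genes, 6 were higher and 6 lower (15.2% called), such as Ndufa12 (0.38) and Ndufs5 (-0.34). The splits of both lists rested on single mice. Respiratory genes were 10 higher and 1 lower without Ctrl 1, 6 and 1 without Ctrl 3, and 9 and 2 without HC 4. Ribosomal genes were 10 higher and 4 lower without Ctrl 1 or HC 4, 2 and 5 without Ctrl 3, 5 and 2 without HC 2, 2 and 7 without HC 3, and 4 and 9 with size factors.

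Markers of cell types were used to see whether the tissue differed in make-up. Of 12 astrocyte markers, 3 were higher and 0 lower, beside 6.24% and 3.36% of all genes, namely Glul, glutamine synthetase, at 400.1, 409, 382 and 381 in HC mice 1 to 4 and 410.2, 536, 508 and 497 in Ctrl mice 1 to 4 (log2 difference 0.31 ± 0.075 SE, limma adjusted p = 0.306), Fgfr3 (0.35) and Atp1b2 (0.20). Their summed FPKM was 787 to 837 in HC and 829 to 992 in Ctrl. Of 11 dentate granule cell markers, Pdzd2 and Sema5a were higher (0.39 and 0.20) and Stxbp6 lower (-0.36), beside the same 6.24% and 3.36%. Leaving out each mouse, 1 to 4 of the 11 were higher. With all 8 mice, at most 1 marker was called for general neurons, CA1, CA2 and CA3 pyramidal cells, interneurons, oligodendrocyte precursors, microglia, endothelium, neocortex, and none for adult neurogenesis, ependyma, red blood cells, striatum, thalamus and habenula or choroid plexus. Without Ctrl 1, 3 interneuron and 2 CA1 markers were higher, and without Ctrl 1, Ctrl 4 or HC 4, 2 markers of general neurons were. The choroid plexus list had the largest median difference of any marker list, 0.50, with 12 of 12 differences above 0 and none called, and this median was 0.26 without Ctrl 2 and -0.13 without HC 2.

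By the rule of the study, an equal-variance test on FPKM at an unadjusted p under 0.05, 5292 of 79272 transcripts (6.68%) were called in Ctrl vs. HC, with 3049 (3.85%) higher and 2243 (2.83%) lower. This count is below the one that the study reported for the same comparison, and the reason was not tested. With adjusted p in the same test, 1 transcript remained. With size factors 2780 were higher and 2529 lower, and without HC 3 the counts were 2294 and 2311. By class, the unadjusted rule called 6.23% of protein coding transcripts, with 2063 higher and 1421 lower. It called 8.46% of assembled transcripts without an Ensembl identifier, with 888 and 700, and 4.96% of lncRNAs, with 92 higher and 116 lower. Limma at the same threshold called 4795 of 57895 transcripts with a mean of at least 0.1 FPKM (8.28%), with 2826 (4.88%) higher and 1969 (3.4%) lower, and the mice of 2987 (5.16%) did not overlap between groups, with 1727 (2.98%) above and 1260 (2.18%) below. Among lncRNAs it called 59 higher and 67 lower, and the median log2 difference of the class was -0.03, against 0.02 for protein coding transcripts.

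Limma passed 8 transcripts at an adjusted p of 0.05 (0.0138%), and the 7 with a gene name were single transcripts that were near 0 in one group, while the other transcripts of the gene carried most of its level. A transcript of Cbx5, the gene of heterochromatin protein HP1 alpha, fell in Ctrl. ENSMUST00000127191.1 (chr15:103213082-103215366) was at 2.32, 2.65, 1.31 and 2.08 FPKM in HC and at most 0.0497 FPKM in Ctrl (log2 difference -4.26 ± 0.28 SE, limma adjusted p = 0.00746), beside 33.0, 30.9, 30.7 and 30.9 and 31.3, 33.1, 32.6 and 33.4 FPKM for the other transcripts of the gene. A noncoding processed transcript of Dnm1, the gene of the vesicle-cutting GTPase dynamin, rose. ENSMUST00000156866.1 (chr2:32312227-32317331) was at most 4.45e-05 FPKM in HC and at 6.17, 3.52, 10.7 and 2.80 FPKM in Ctrl (log2 difference 5.69 ± 0.39 SE, limma adjusted p = 0.00746), while the other transcripts were at 54.2, 61.8, 48.8 and 58.4 and 54.3, 60.7, 60.2 and 58.0. ENSMUST00000134542.1 of Btf3 (chr13:98309942-98316376), a transcription and protein-sorting factor, also rose, from at most 9.09e-04 FPKM in HC to 2.68, 8.16, 12.4 and 9.15 FPKM in Ctrl (log2 difference 6.16 ± 0.42 SE, limma adjusted p = 0.00746). Here the other transcripts were lower in every Ctrl mouse, at 28.0, 24.8, 21.4 and 25.0 in HC and 19.5, 16.3, 13.7 and 13.2 in Ctrl. ENSMUST00000113819.1 of Arpc2, a subunit of the actin-branching complex, fell from 1.29, 5.33, 1.70 and 4.24 FPKM to at most 7.04e-04 FPKM, and its other transcripts were at 72.1, 73.7, 69.0 and 66.2 and 73.2, 75.6, 75.5 and 75.6. The other named transcripts past the threshold belong to Nelfcd and Papola, which fell, and Rabl6, which rose. Their largest value in the 8 HC and Ctrl mice was 1.89 FPKM. The last was an assembled transcript without a gene name, at 0 in every HC mouse and at 0.685 to 1.92 FPKM in Ctrl. The number past the threshold was 0 without HC 4, 5 without HC 3 and 13 without Ctrl 1. It was 0 when 1 was added in place of 0.1, among transcripts with a mean of at least 1 FPKM, in a fit of all 16 mice and with replicate number as a block. Folds of such transcripts rest on the 0.1 added before the logarithm, and an FPKM near 0 may be a failed split of reads between transcripts. In NLH and LH mice the same transcripts were present in some mice and near 0 in others. The Cbx5 transcript reached 0.917 FPKM in NLH and 3.08 FPKM in LH, and the Dnm1 transcript 7.68 and 0.413, each with at least 1 mouse below 0.1 FPKM in both groups.

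**Figure D5:**
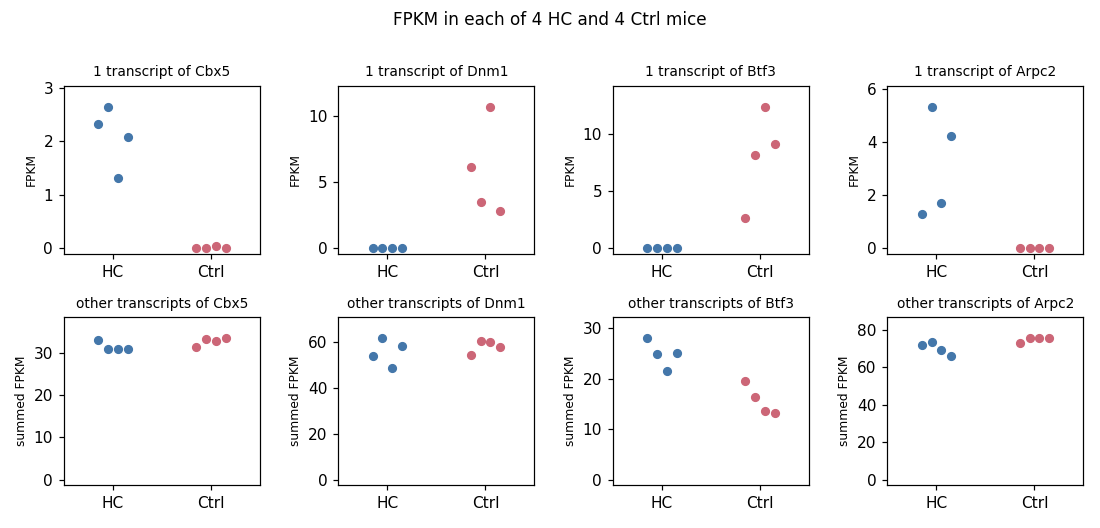
FPKM of 4 single transcripts (upper row) and summed FPKM of the other transcripts of the same gene (lower row) on the y axis, in each HC and Ctrl mouse on the x axis. The single transcripts of Cbx5 and Arpc2 are near 0 in Ctrl and those of Dnm1 and Btf3 near 0 in HC, and of the lower row, that of Btf3 alone lies lower in Ctrl without overlap.

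Other transcripts among the 10 with the smallest limma p were expressed in both groups and did not pass the adjusted threshold. ENSMUST00000150834.7 of Bmi1, a subunit of a Polycomb complex, was at 4.55, 5.69, 5.39 and 4.148 FPKM in HC and 2.12, 1.71, 2.43 and 1.72 FPKM in Ctrl (log2 difference -1.27 ± 0.15 SE, limma adjusted p = 0.0870). The remaining Bmi1 transcripts were higher in Ctrl, at 6.59, 7.43, 6.51 and 6.04 and 7.79, 7.59, 8.18 and 11.3, and the share of ENSMUST00000150834.7 in the gene was 40.7% to 45.3% in HC and 13.3% to 22.9% in Ctrl. ENSMUST00000114314.9 of Grin1 was at 9.02, 9.43, 9.46 and 9.45 FPKM in HC and 13.2, 13.0, 11.6 and 12.5 FPKM in Ctrl (log2 difference 0.43 ± 0.056 SE, limma adjusted p = 0.118), and its other transcripts overlapped between the groups. A transcript of Cnot2, a subunit of the deadenylase complex, that is annotated as a target of nonsense-mediated decay was at 2.12, 1.59, 1.33 and 1.99 and 4.10, 3.84, 4.42 and 3.47 FPKM (log2 difference 1.14 ± 0.15 SE, limma adjusted p = 0.129). Transcripts of the ribosomal genes Rpl28 and Fau were higher in Ctrl (log2 differences of 0.67 and 0.33), and 9330159F19Rik had no other transcript above 0 in these 8 mice.

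Isoform use, the level of a transcript against that of the other transcripts of its gene, was tested for 25732 transcripts of 8294 genes. After adjustment, 7 transcripts passed (0.0272%), and at an unadjusted p under 0.05 there were 1746 (6.79%), 900 (3.5%) with a larger and 846 (3.29%) with a smaller share in Ctrl. The 7 belong to Btf3, Amy1, Dapk3 (both of its transcripts), Lrsam1, Grhpr and Afap1l2. ENSMUST00000134542.1 of Btf3 made up at most 0.00425% of the gene in HC and 12.1% to 47.6% in Ctrl (isoform log2 difference 6.83 ± 0.66 SE, limma adjusted p = 0.0401). In Amy1, an amylase gene with near-identical copies among which reads may be split, ENSMUST00000174147.1 was at 0.127, 0.195, 1.83e-06 and 0.136 FPKM in HC and 1.26, 0.791, 1.29 and 1.48 FPKM in Ctrl, while the rest of the gene was at 1.84, 2.401, 1.43 and 2.14 and 1.63, 1.51, 1.19 and 1.67 (isoform log2 difference 3.02 ± 0.30 SE, limma adjusted p = 0.0401). In Grhpr, a reductase, ENSMUST00000045078.12 was the whole of the gene in HC and 52.8% to 79.7% of it in Ctrl, where the other transcripts reached 1.98, 0.987, 1.27 and 0.844 FPKM. ENSMUST00000138015.1 of Lrsam1, at most 0 FPKM in HC, was at 0.499, 0.513, 0.298 and 0.558 FPKM in Ctrl, and ENSMUST00000111584.8 of Afap1l2 went from 0.545, 0.271, 0.461 and 0.288 FPKM in HC to at most 2.46e-04 FPKM in Ctrl. Dapk3 passed for a different kind of pattern. Its transcript ENSMUST00000178422.7 was at 1.75, 1.25, 2.68 and 1.74 FPKM in HC, and at 1.46e-08, 1.25, 9.76e-08 and 1.62 FPKM in Ctrl. The rest of the gene was at 1.44e-04, 3.08e-05, 6.30e-11 and 1.46e-04 FPKM in HC and 1.64e-04, 0.852, 5.91e-05 and 0.550 FPKM in Ctrl. In Ctrl mice 1 and 3 the share is thus a ratio of values near 0, and in Ctrl mice 2 and 4 the transcript lay within the HC range. No transcript passed when 1 was added in place of 0.1, nor among transcripts with a share of at least 20%. Leaving out each mouse in turn, 0 to 6 passed.

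Transcripts with a mean of at least 1 FPKM in one group and under 0.1 FPKM in every mouse of the other numbered 92, of which 43 were present in Ctrl and 49 in HC. They came from 71 named genes, of which 13 were called at the gene level (9.6% of all genes were), and 21 were assembled transcripts. Many rested on a single mouse. A transcript of Nr4a2, ENSMUST00000128776.1, was at 26.2 FPKM in HC mouse 4 and at 0 in the other 7 mice, and raised the summed immediate early genes of that mouse to 73.3 FPKM, against 40.6 to 42.9 FPKM in the other HC mice. Of the 92, 6 passed the adjusted threshold. Since the 92 were picked for a difference between these same mice, neither this count nor that of called genes tests it.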

How the data were processed

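Total RNA of the hippocampus of 16 mice was sequenced, 1 library per mouse, and the 8 HC and Ctrl mice were compared here. The authors deposited FPKM per transcript for each mouse. The methods of the study name HISAT2 with mm10, StringTie 1.2.3 and Cufflinks, while the submitters' processing notes name STAR 2.42a, and which made the table could not be settled. Strand is not given in the sources used here. The number of fragments per mouse was worked out from the steps between low FPKM values in 1962 long loci with 1 transcript, assuming fragments of 200 bases, and 60.5% to 64.3% of their values lay within 0.1 of a whole fragment, against 20% by chance.

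FPKM was summed per gene name. Genes and transcripts with a mean of at least 0.1 FPKM over the 8 mice were tested as log2(FPKM + 0.1) with limma 3.58.1 in R 4.3.3 (trended and robust variance, Benjamini-Hochberg adjustment), and a fold on this scale understates the change of low genes. Isoform use was the log2 ratio of a transcript to the other transcripts of its gene, for genes with a mean of at least 1 FPKM and shares of at least 5%. The rule of the study was repeated as an equal-variance test on FPKM. The gene and transcript fits were also run on simulated normal values. These do not hold splits of reads between transcripts near 0, so that run says nothing on such transcripts. Named were the 7 genes with the smallest limma p in each direction and the 10 transcripts with the smallest p (symbol and mean of at least 1 FPKM), the 6 transcripts with the smallest p in isoform use, up to 4 members of each list, a set of fixed genes (Fos, Arc, Egr1, Npas4, Nr4a1, Homer1, Bdnf, Fkbp5, Sgk1, Tsc22d3, Per1 and Nr3c1) and up to 5 features past the adjusted threshold of any fit. The genes of the folding list and further called members of lists were added with their values in view. The members and lists were chosen with earlier results of these data known. Genes analysed lie on chromosomes 1 to 19, some genes were not analysed here, and a few called members of the lists are not reported here.

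Alternatives were other added constants, filters, size factors, all 16 mice, leaving out each mouse, replicate number as a block, and, chosen after seeing the data, sums per assembled locus. Replicate numbers are shared between groups, but deviations of same-numbered mice correlated at -0.0229, -0.0081, 0.0122 and -0.0387, so they were not taken as pairs.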

Additional observations from a re-analysis of the deposited data

Results flagged for a closer look

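In 144 groups of 4 mice, 15 had 1 mouse whose gap to the nearest of the others was, as a share of the range of the group, above Dixon's critical value for 4 samples. Chance flags about 1 in 20 groups. Ctrl mouse 2 was high for Sgk1, at 45.5 FPKM against 14.97 to 18.96 in the other Ctrl mice, for the summed glucocorticoid-induced genes, at 314.6 against 232 to 245, and for the summed choroid plexus markers, at 71.5 against 27.2 to 34.4. It was low for Bdnf, at 3.36 FPKM against 3.94 to 4.02.

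Ctrl mouse 1 was high for Dbp, at 10.3 FPKM against 9.10 to 9.30, and low for the summed astrocyte markers, at 829 against 974 to 992, the summed CA2 markers, at 32.4 against 37.4 to 38.3, and the summed chromatin regulators, at 301.9 against 329 to 332. Ctrl mouse 4 was high for Arc, at 13.9 FPKM against 9.28 to 9.63.

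HC mouse 4 was high for Limk2, at 10.2 FPKM against 9.29 to 9.42, and for the summed immediate early genes, at 73.3 against 40.6 to 42.9. HC mouse 1 was high for the summed red blood cell genes, at 398 FPKM against 221 to 242, and low for ENSMUST00000114314.9 of Grin1, at 9.02 against 9.43 to 9.46. HC mouse 2 was low for ENSMUST00000032597.11 of Rpl28, at 4.25 FPKM against 4.52 to 4.57, and HC mouse 3 for the summed interneuron markers, at 137 against 160 to 162.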

How the results depend on the processing

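The number of genes past the adjusted threshold, 0 here, was 4 when 1 was added in place of 0.1, 9 with a mean of at least 1 FPKM, 7 with median-ratio size factors, 3 with an equal-variance test, 4 with sums per assembled locus (chosen after seeing the data) and 0 to 4 leaving out each mouse. At an unadjusted p under 0.05 it was 390 in the fit of all 16 mice, in place of 1469. For transcripts the 8 became 3 with 0.01 added, 0 with 1 added, 14 with no filter, 0 with a mean of at least 1 FPKM, 0 with all 16 mice and 0 to 13 leaving out each mouse. At the unadjusted threshold they were 2494 with a mean of at least 1 FPKM and 2101 with all 16 mice, and by the rule of the study 1 with adjusted p and 2540 with a mean of at least 1 FPKM. For isoform use the 7 became 0 with 1 added, 0 with a share of at least 20%, 2 with all 16 mice and 0 to 6 leaving out each mouse, and at the unadjusted threshold 862 with a share of at least 20% and 884 with all 16 mice. The higher filters test fewer features, and the cause of the other changes was not tested.

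With replicate number as a block, 0 transcripts and 0 isoform uses passed the adjusted threshold and 0 genes, and at the unadjusted threshold there were 1245 genes, 4160 transcripts and 1650 isoform uses. Of the 8 mice, 1 correlated best with its own number, so the mice share only a number. With size factors, with 1 added or with 1 mouse left out, no called value of a named gene or named transcript changed sign. The fits of all 16 mice and with the block keep the same difference by design, so its sign could not change there. The other alternatives were not looked at for single named genes. With size factors or 1 mouse left out, the medians of 21 of the 37 lists changed sign, most of them near 0. Those of the choroid plexus markers (0.50, and -0.13 without HC 2) and of ependyma were the ones above 0.1. The medians of the folding, heat shock, immediate early, effector, glucocorticoid-induced, noncoding RNA and oligodendrocyte lists kept their sign. Over 95 named genes, 127 values lost and 2 gained the unadjusted call, 41 of the losses with all 16 mice and 9 with the block. Depth limits low transcripts most, since 1 fragment is a large part of their FPKM.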
